A study of Homo sapiens with 6 samples.

Results

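CDK inhibitors and D-type cyclins, the genes that brake and drive entry into the cell cycle, were followed in SCC25 cells under hypoxia and normoxia. The genes were chosen by symbol: the CIP/KIP inhibitors CDKN1A, CDKN1B and CDKN1C, the INK4 inhibitors CDKN2A, CDKN2B, CDKN2C and CDKN2D, and the D-type cyclins CCND1, CCND2 and CCND3. All 10 were found among the 21776 genes of the count table. SCC25 is an established human oral squamous cell carcinoma line, and its genotype is labelled WT. RNA sequencing covered 3 libraries of cells held for 12 h under hypoxia (1% O2, with CO2 and nitrogen) and 3 libraries of cells held for 12 h under normoxia (air with CO2). The labels name SCC25 for all 6 libraries, whereas the study's text names SCC9 for this comparison. The hypoxia libraries, replicates 1 to 3, summed to 30186813, 36076088 and 32272716 counts, and the normoxia libraries to 37278703, 29637189 and 29981208. Nothing in the labels says whether the libraries came from separate cultures, so the p-values measure only the spread between these libraries, and they describe a single cell line.

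The labelled cell type was checked against epithelial and other markers. Of 12 squamous epithelial markers, 11 passed the filter on low counts, and of these 4 were called higher and 5 lower under hypoxia, beside 39.2% and 38.5% of all genes tested. Their sum was 3542 to 3686 CPM (counts scaled by the library total) under hypoxia and 2497 to 2746 under normoxia. The integrin gene ITGB4 and the keratin gene KRT17 had the largest and smallest called increases, 1.99 and 1.06 on the log2 scale. The increases of CDH1 and DSG3 lay between them. Another keratin gene, KRT6A, had the largest decrease, at -4.12. The other called decreases, of KRT5, EPCAM, SFN and the integrin gene ITGA6, were all below 1 in size. KRT5 had 3494 to 4424 counts per library and TP63 1499 to 2442 counts, but KRT14, the usual partner of KRT5 in basal keratinocytes, had 0 or 1 count in each of the 6 libraries. The leukocyte marker PTPRC had at most 2 counts. The summed fibroblast markers came to 20.8 to 25.5 CPM under hypoxia and 4.83 to 8.04 under normoxia, with COL1A1 as the most abundant, and of 8 markers 3 could be tested and 2 (COL1A1 and FAP) were called higher. Endothelial markers summed to 1.36 to 1.72 CPM under hypoxia and 0.295 to 0.734 under normoxia (CDH5 most abundant, and the 1 marker tested of 5, called higher), and immune markers to 40.5 to 46.2 and 32.6 to 36.7 CPM (CD68 most abundant, 3 of 8 tested and 2 called higher, 4 of 8 with at most 3 counts in every library). The called immune markers were CD14 and CSF1R, at 2.45 and 2.49 on the log2 scale, whereas CD68 did not pass, at -0.092. CDH5 passed the filter only through the hypoxia libraries, with 28 to 34 counts there and 9 to 22 under normoxia. The calls of FAP and CDH5 were lost when hypoxia replicate 1 or 3 or normoxia replicate 1 or 2 was left out. The part of these markers in the results below was not tested. All 15 hypoxia response genes were higher under hypoxia, with a median log2-fold change of 2.71.

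Progression through the first gap phase (G1) depends on D-type cyclins, which bind and activate the kinases CDK4 and CDK6. These kinases phosphorylate the retinoblastoma protein RB1 and so release E2F transcription factors, which switch on genes for DNA replication. INK4 proteins bind CDK4 and CDK6 and keep them from their cyclin, whereas CIP/KIP proteins bind whole cyclin-kinase complexes and are potent inhibitors of CDK2. CCND1 and CDKN2A are among the genes most often altered in oral squamous cell carcinoma.

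All 10 genes passed the filter on low counts and were tested, CDKN1C only through its hypoxia libraries. In edgeR's quasi-likelihood test, with Benjamini-Hochberg adjustment over 14255 genes and a threshold of 0.05, the RNA of 5 was higher and that of 3 lower under hypoxia, and CDKN2D and CCND2 did not pass. Every gene that rose encodes an inhibitor. The genes that fell were CCND1, CCND3 and the inhibitor CDKN2C. These shares have to be read against a transcriptome in which 77.8% of the tested genes were called, 39.2% as higher and 38.5% as lower, so the number of calls among the 10 genes is close to the background. The groups did not overlap for 8 of the 10 genes, against 80.5% of all genes tested. A log2-fold change beyond 1 in size was reached by 4 of the 10 genes, CDKN1C and CDKN2B upwards and CCND1 and CCND3 downwards, against 30.4% of all genes (19.9% upwards and 10.5% downwards). Over the 10 genes the log2-fold changes had a median of 0.32, and over all genes 0.023. The libraries are bulk RNA, so that a smaller share of cells in a phase of the cell cycle and less RNA per cell cannot be told apart.

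**Figure D1:**
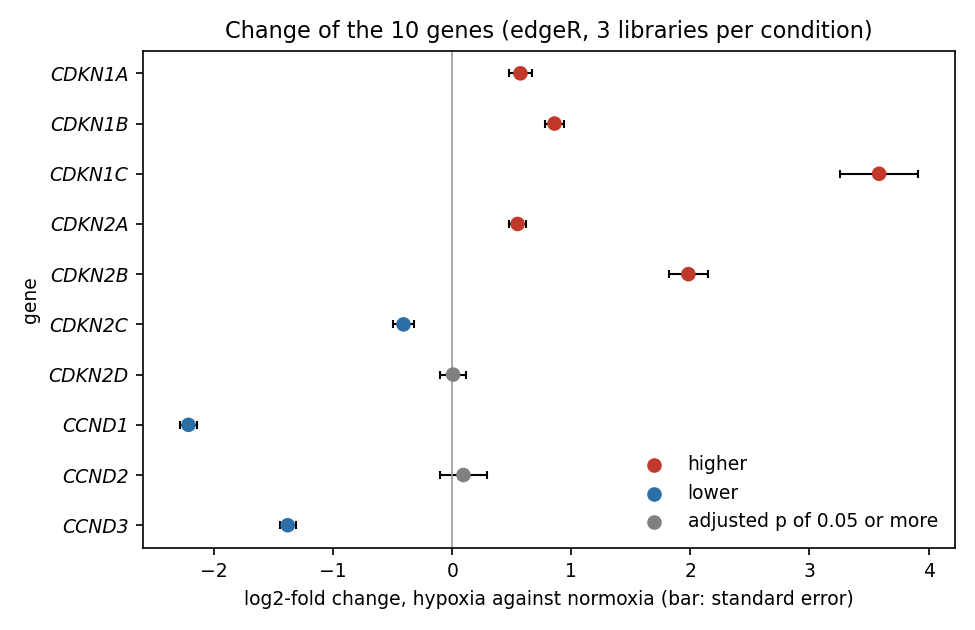
Log2-fold change of each of the 10 genes under hypoxia against normoxia (x axis), with the standard error as a bar, from edgeR's quasi-likelihood test on 3 libraries per condition. Red marks genes called higher, blue genes called lower and grey genes not called. The points run from -2.22 for CCND1 to 3.58 for CDKN1C.

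All 3 CIP/KIP genes rose. CDKN1A encodes p21, the inhibitor best known as a target of p53. Its level was 180, 225 and 240 CPM (TMM-normalized) under hypoxia, in the order of replicates 1 to 3, and 142, 166 and 126 CPM under normoxia. The conditions did not overlap, but hypoxia replicate 1 lay closer to the highest normoxia library than to the other hypoxia libraries. The log2-fold change was 0.57 (standard error, SE, 0.096, edgeR adjusted p = 3.28e-05), and it stayed between 0.47 and 0.68 when each library was left out in turn. Of all tested genes, 46.5% changed by less in either direction.

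CDKN1B encodes p27, an inhibitor that accumulates in resting cells. It stood at 38.4, 41.1 and 46.97 CPM under hypoxia and at 22.9, 24.6 and 22.3 CPM under normoxia. All hypoxia libraries were above all normoxia libraries with a wide gap between them. The log2-fold change was 0.86 (SE 0.081, edgeR adjusted p = 3.18e-08), a 1.81-fold higher level.

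CDKN1C encodes p57, an imprinted inhibitor with a role in development. Hypoxia libraries held 99, 165 and 98 counts of it, normoxia libraries 9, 7 and 12. This was 3.57 ± 0.76 CPM (SD, n = 3) against 0.30 ± 0.094 CPM (SD, n = 3). The gene went from barely counted to low. The fitted log2-fold change was 3.58 (SE 0.33, edgeR adjusted p = 1.86e-08), but it rests on 7 to 12 counts per normoxia library. The gene passed the filter through the hypoxia libraries alone and drops out when at least 10 counts are required in every library, so its rank among the 10 genes is uncertain. More genes had a count in each hypoxia library than in any normoxia library, 18766 to 18996 against 17128 to 17505. The part of this in the rise of genes with few counts was not tested.

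The 250 bases before the annotated start of CDKN1B are shown because this gene had the largest rise among the CIP/KIP genes with a promoter in the reference table (RefSeq, GRCh38.p14, chr12:12717118-12717367, plus strand). Capitals mark the letters ACGTG or GCGTG on either strand, the core of the hypoxia response element to which HIF binds.
CDKN1B: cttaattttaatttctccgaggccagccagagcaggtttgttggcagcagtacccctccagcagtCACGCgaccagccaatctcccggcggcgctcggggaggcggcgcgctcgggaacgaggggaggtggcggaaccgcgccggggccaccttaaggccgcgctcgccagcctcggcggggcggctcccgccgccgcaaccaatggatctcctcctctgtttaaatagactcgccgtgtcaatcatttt
A single match, GCGTG on the reverse strand, lies 181 to 185 bases before the start. CDKN1A also holds GCGTG on the reverse strand, 191 to 195 bases before its start. Such letters are common, since 43.2% of 35116 promoter windows of the same length hold at least 1 match.

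The INK4 family moved in both directions. CDKN2B encodes p15, an inhibitor known for its induction by TGF-beta, and it changed most. Its level was 13.6, 13.2 and 13.2 CPM under hypoxia and 2.71, 2.94 and 4.53 CPM under normoxia. The hypoxia libraries were almost equal, and normoxia replicate 3 stood above the other normoxia libraries while remaining far below the hypoxia libraries. The log2-fold change was 1.98 (SE 0.16, edgeR adjusted p = 4.21e-09), and 2.23 without normoxia replicate 3.

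CDKN2A encodes p16INK4a and, from another first exon, p14ARF, a protein that protects p53 from MDM2. The count table has a single row for both, so that the transcripts cannot be told apart. The level was 44.2, 45.8 and 49.8 CPM under hypoxia and 33.8, 29.5 and 32.1 CPM under normoxia, without overlap. The log2-fold change was 0.55 (SE 0.072, edgeR adjusted p = 1.88e-06). CDKN2C, which encodes p18, went the other way, with 14.7, 14.9 and 15.4 CPM under hypoxia and 20.5, 18.2 and 21.0 CPM under normoxia. It was the only CDK inhibitor of the 7 that fell, with a log2-fold change of -0.41 (SE 0.091, edgeR adjusted p = 0.000536).

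CDKN2D, which encodes p19, had 12.0, 10.4 and 10.4 CPM under hypoxia and 10.7, 10.7 and 11.2 CPM under normoxia, and the conditions overlapped. Its log2-fold change was 0.0067 (SE 0.11, edgeR adjusted p = 0.957), and its sign changed when single libraries were left out.

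The windows before the starts of CDKN2A and CDKN2B are shown because these inhibitors neighbour each other on chromosome 9 and both rose, and because CDKN2A has a start for each protein (RefSeq, GRCh38.p14, all on the minus strand). The starts of CDKN2A correspond to chr9:21995325-21995574 and chr9:21974858-21975107, and that of CDKN2B to chr9:22009306-22009555. Capitals again mark ACGTG or GCGTG on either strand.
CDKN2A, upstream start: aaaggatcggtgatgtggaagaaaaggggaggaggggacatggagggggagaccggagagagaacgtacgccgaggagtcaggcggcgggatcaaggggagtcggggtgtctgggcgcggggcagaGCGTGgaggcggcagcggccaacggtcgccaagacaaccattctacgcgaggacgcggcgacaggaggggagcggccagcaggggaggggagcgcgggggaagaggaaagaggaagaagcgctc
CDKN2A, downstream start: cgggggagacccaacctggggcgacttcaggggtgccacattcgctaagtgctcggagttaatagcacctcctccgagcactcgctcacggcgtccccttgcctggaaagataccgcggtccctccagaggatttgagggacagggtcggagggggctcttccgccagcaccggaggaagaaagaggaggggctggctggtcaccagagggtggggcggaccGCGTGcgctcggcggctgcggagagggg
CDKN2B: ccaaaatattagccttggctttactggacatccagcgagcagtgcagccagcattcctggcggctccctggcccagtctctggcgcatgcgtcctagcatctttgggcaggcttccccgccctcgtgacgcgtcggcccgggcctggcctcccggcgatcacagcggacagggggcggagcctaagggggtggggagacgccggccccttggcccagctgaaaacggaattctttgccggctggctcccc
Each CDKN2A window holds GCGTG once, at 120 to 124 bases before the upstream start and at 24 to 28 bases before the downstream start. The CDKN2B window, before the gene with the largest rise of the family, holds neither sequence of letters. CDKN2C, which fell, holds matches before all 3 of its starts, and CDKN2D, which did not pass the test, holds 3. Matches were found before genes that rose, that fell and that did not pass, and a tie to the direction of change was not tested. Of the 10 genes, 7 had a window in the table, with 12 starts in all. Of the 12 starts, 9 held a match, 3 of them those of CDKN2C, beside 43.2% of all windows. The windows of CDKN1C, CCND1 and CCND2 were not analysed here. The E-box CACGTG, which contains ACGTG on both strands, was found before 2 of the starts of CDKN2C and at no start of the other 6 genes, against 6.34% of all windows. The E2F letters TTTCGCGC or TTTGGCGC were found at none of the 12 starts, against 0.968% of all windows.

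Of the D-type cyclins, CCND1 and CCND3 fell and CCND2 did not pass. CCND1 encodes cyclin D1, a mitogen-responsive activator of CDK4 and CDK6. Normoxia libraries held 17194, 14152 and 11730 counts of CCND1, hypoxia libraries 3068, 3474 and 3165. After normalization these were 462, 495 and 396 CPM under normoxia against 100.5, 93.4 and 97.5 CPM under hypoxia. The hypoxia libraries lay close together and far below all normoxia libraries. The log2-fold change was -2.22 (SE 0.071, edgeR adjusted p = 5.3e-14), and it ranged from -2.32 to -2.15 with each library left out in turn. Of all tested genes, 92.1% changed by less in either direction.

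CCND3 fell as well, from 92.2, 94.2 and 84.0 CPM under normoxia to 35.3, 31.9 and 36.6 CPM under hypoxia. The gap between the conditions was wider than the range within either. Its log2-fold change was -1.38 (SE 0.067, edgeR adjusted p = 5.82e-12). CCND2 was a minor transcript in this line, with 4.16, 4.54 and 3.24 CPM under hypoxia and 4.08, 4.12 and 2.97 CPM under normoxia. The conditions overlapped throughout, and the log2-fold change was 0.094 (SE 0.19, edgeR adjusted p = 0.668).

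**Figure D2:**
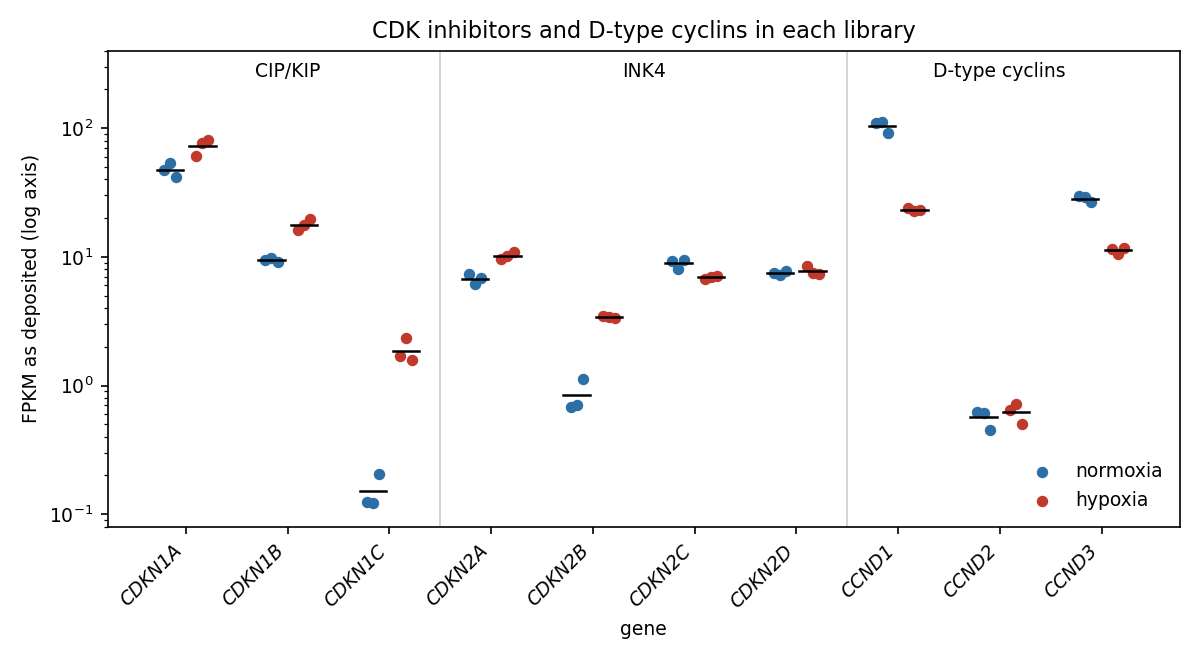
Deposited FPKM (y axis, log scale) of the 10 genes in each library, with normoxia in blue, hypoxia in red and the mean of 3 libraries as a black line. CCND1 leads under normoxia at 105 FPKM and CDKN1A under hypoxia at 72.8 FPKM, and the conditions overlap for CDKN2D and CCND2.

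Levels of different genes were compared as FPKM, which are scaled by gene length. Under normoxia the order from the top was CCND1 at 105 ± 10.8 FPKM (SD, n = 3), CDKN1A at 47.4 ± 5.96, CCND3 at 28.4 ± 1.6 and CDKN1B at 9.49 ± 0.35 FPKM. Then came CDKN2C, CDKN2D and CDKN2A at mean levels of 8.95, 7.49 and 6.77 FPKM, and last CDKN2B, CCND2 and CDKN1C at 0.84, 0.56 and 0.15 FPKM. CDKN1B and CDKN2C overlapped between libraries, as did CDKN2D and CDKN2A, and the other neighbours in this order did not. Under hypoxia CDKN1A led at 72.8 ± 10.6 FPKM (SD, n = 3), ahead of CCND1 at 23.3 ± 0.64, CDKN1B at 17.8 ± 1.7, CCND3 at 11.3 ± 0.65 and CDKN2A at 10.2 ± 0.57 FPKM. CCND2 was last at 0.62 ± 0.11 FPKM. CCND3 and CDKN2A overlapped and no other neighbours did. The length behind the FPKM of CDKN2A was 4626 bases, whereas its longest transcript in GENCODE v29 has 1283 bases. With counts divided by the longest transcript of each gene, CDKN2A stood at 24.4 FPKM under normoxia and 36.9 FPKM under hypoxia, where it ranked above CCND1 at 22.9 FPKM. CDKN1A stayed the first gene under hypoxia and CCND1 the first under normoxia with both lengths.

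Levels were also summed over each family. The D-type cyclins together had 139, 142 and 119 FPKM under normoxia and 36.1, 34.0 and 35.4 FPKM under hypoxia. The CIP/KIP genes together had 56.9, 63.4 and 50.8 FPKM under normoxia and 78.6, 97.3 and 102 FPKM under hypoxia. Within each library the ratio of CIP/KIP to D-type cyclin FPKM was 0.409, 0.445 and 0.426 under normoxia and 2.18, 2.86 and 2.87 under hypoxia. It lay below 1 in every normoxia library and above 1 in every hypoxia library, also with the longest transcripts as lengths, where it was 0.49 to 0.53 and 2.47 to 3.28. The INK4 genes together changed less, with 24.8, 22.2 and 25.1 FPKM under normoxia and 28.4, 28.1 and 28.6 FPKM under hypoxia. The ratio of INK4 to D-type cyclin FPKM was 0.179, 0.156 and 0.211 under normoxia and 0.787, 0.827 and 0.806 under hypoxia, higher in every hypoxia library than in any normoxia library. Whether it passed 1 depended on the lengths, since with the longest transcripts it was 0.242 to 0.323 under normoxia and 1.33 to 1.44 under hypoxia. These are levels of RNA, and no test was made of the sums.

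**Figure D3:**
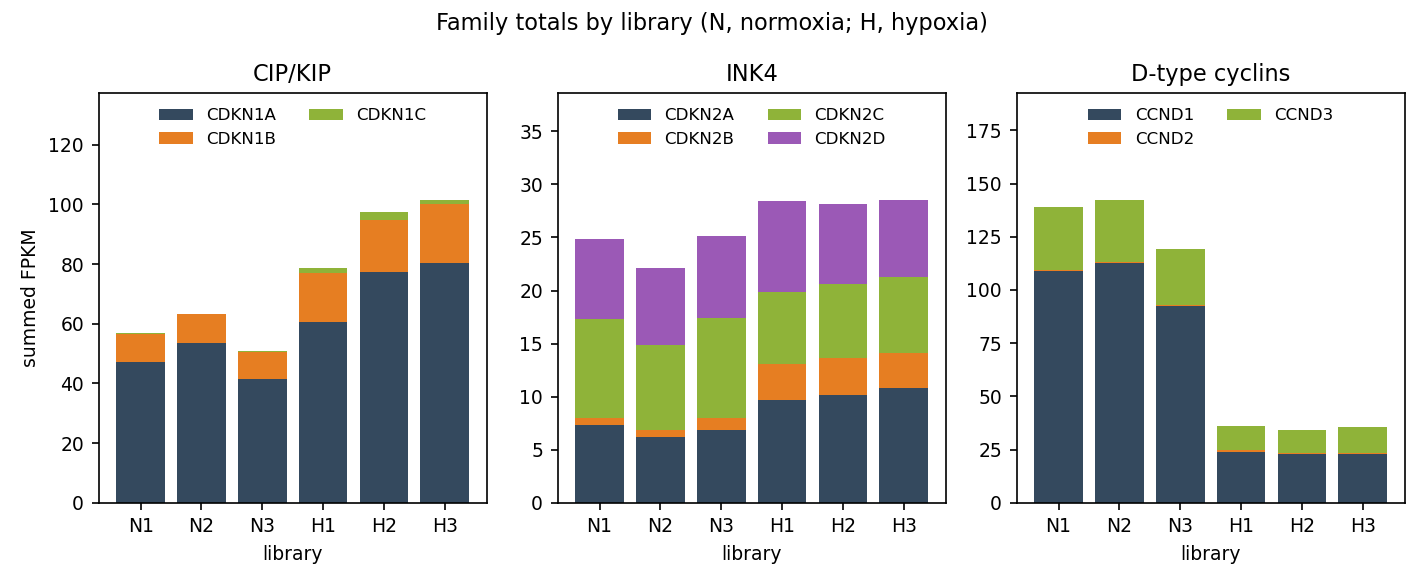
Summed FPKM (y axis) of the CIP/KIP, INK4 and D-type cyclin genes in each library (x axis; N, normoxia and H, hypoxia, replicates 1 to 3), with each gene as a coloured segment. The D-type cyclin bars drop from 119 or more to 36.1 or less, while the CIP/KIP bars rise from at most 63.4 to at least 78.6.

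The makeup of each family changed too. CCND1 made up 78.3% ± 0.87 of the D-type cyclin FPKM under normoxia and 66.2% ± 0.81 under hypoxia (SD, n = 3), and CCND3 went from 21.3% ± 0.90 to 32.0% ± 1.2. CDKN2A made up 28.1% ± 1.1 of the INK4 FPKM under normoxia and 36.1% ± 1.9 under hypoxia, CDKN2B 3.47% ± 0.89 and 12.0% ± 0.29, and CDKN2C 37.2% ± 0.76 and 24.5% ± 0.58. The leading INK4 gene by FPKM was thus CDKN2C under normoxia and CDKN2A under hypoxia, but with the longest transcripts as lengths CDKN2A led in both, at 61.7% and 69.1%, with CDKN2B at 2.16% and 6.5% and CDKN2C at 17.1% and 9.83%. CDKN1A held 83.0% ± 1.3 of the CIP/KIP FPKM under normoxia and 78.7% ± 1.2 under hypoxia. With 3 libraries against 3, an exact permutation test of any such share could not go below p = 0.1.

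The partners of these proteins in G1 fell under hypoxia. In a list of 8 G1 kinases and their activators, all 8 were lower by the same test, with a median log2-fold change of -0.76 beside 0.023 over all genes. This count, and those of the lists that follow, stand beside 38.5% lower and 39.2% higher among all genes tested. CDK4 changed by -0.72, CDK6 by -0.80 and CDK2 by -0.95 on the log2 scale. CDC25A, the phosphatase that activates CDK2, fell furthest, by 2.64 on the log2 scale, from 1645 to 2585 counts under normoxia to 325 to 386 under hypoxia. CDK7, CCNH and MNAT1, which together form the kinase that activates CDKs, changed by -0.41, -1.16 and -0.33.

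Cyclins that act after the D-type cyclins fell as well. Of 7 genes, all 7 were lower, beside 38.5% of all genes, with a median log2-fold change of -1.34. CCNE1 and CCNE2, the partners of CDK2 at the start of replication, changed by -1.25 and -1.34. CCNA2 changed by -1.56, the mitotic cyclins CCNB1 and CCNB2 by -1.63 and -0.95, and their kinase CDK1 by -1.22 on the log2 scale.

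Of 13 genes for pocket proteins and E2F factors, 11 were lower and 2 higher, with a median log2-fold change of -0.99. The growth-promoting factors E2F1, E2F2 and E2F3 changed by -1.54, -1.47 and -0.99. Among the pocket proteins, RB1 changed by -0.40 and RBL1 by -1.07, whereas RBL2, the pocket protein of resting cells, rose by 0.81 on the log2 scale. The other gene that rose was TFDP2, a partner of E2F factors, at 0.35. Of 18 E2F target genes, 17 were lower, with a median of -1.18, and CDT1 did not pass. The furthest from 0 was E2F1 itself, followed by RRM2 at -1.53 and MCM4 at -1.37, a ribonucleotide reductase subunit and a subunit of the replicative helicase. All 10 proliferation markers were lower, from CENPF at -0.48 to PLK1 at -1.95, with MKI67 at -1.11. The lists share CCNE1, CCNE2, E2F1 and CCNB1.

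**Figure D4:**
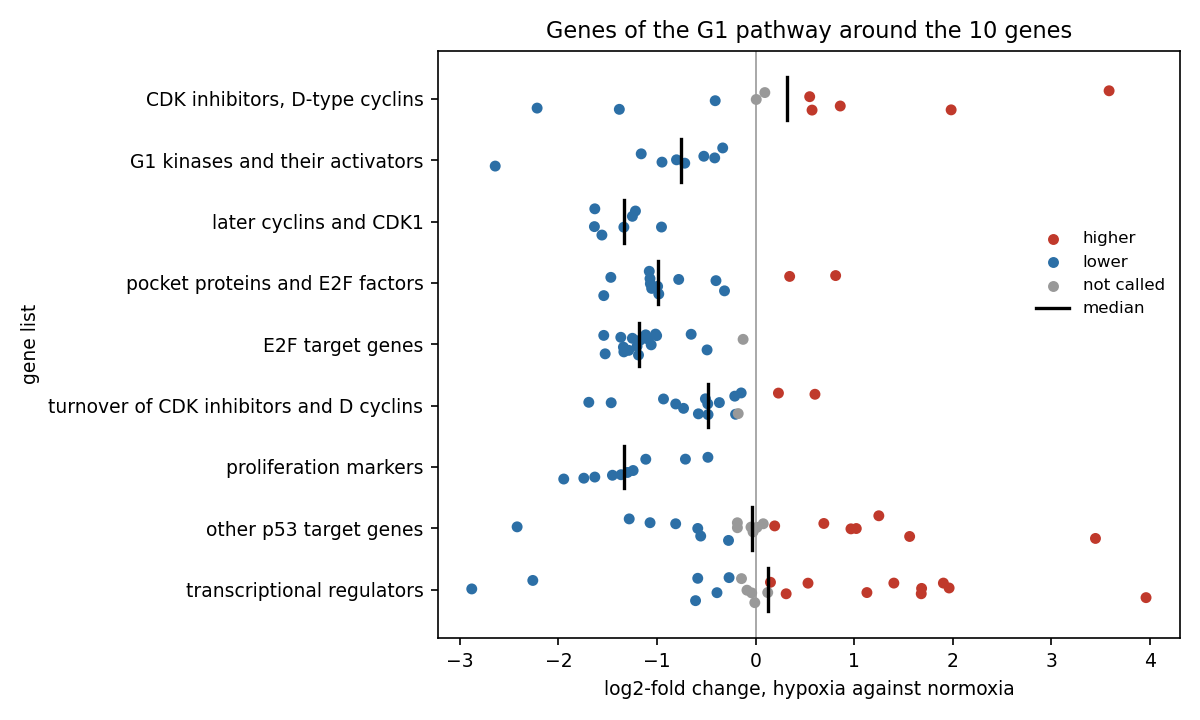
Log2-fold change under hypoxia against normoxia (x axis) of the genes in each list (y axis), with red for higher, blue for lower and grey for not called by edgeR's quasi-likelihood test, and the median as a black bar. The kinases, later cyclins and proliferation markers lie wholly below 0, with medians of -0.76, -1.34 and -1.33, while the 10 CDK inhibitors and D-type cyclins spread to both sides.

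Protein levels of p21, p27 and cyclin D1 are set largely by degradation, and genes of this machinery were followed as a list of 16. Of these, 13 were lower and 2 higher, beside 38.5% and 39.2% of all genes, with a median log2-fold change of -0.48. With at least 10 counts in every library, 10 were lower. SKP2 and CKS1B, the receptor and its cofactor that mark p27 for destruction, changed by -0.81 and -0.73. DTL, the receptor for p21 during replication, changed by -0.93. AMBRA1, the receptor for D-type cyclins, rose by 0.23 and CUL4B by 0.60. CDC20 and UBE2C, which act in mitosis, had the largest decreases, at -1.69 and -1.46 on the log2 scale. Protein was not measured in these libraries.

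CDKN1A is a p53 target, and 20 other p53 targets were followed. Of these, 7 were higher, 7 lower and 6 did not pass, beside 39.2% higher and 38.5% lower among all genes tested, and the median log2-fold change was -0.036. The largest increases were those of TP53INP1 at 3.45, BTG2 at 1.56 and BBC3 at 1.25. The largest decreases were those of AEN at -2.42, GADD45A at -1.28 and BAX at -1.07. All 6 are linked to growth arrest or cell death. MDM2, the ligase that degrades p53, rose by 1.02 on the log2 scale.

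Among 21 transcription factors and chromatin regulators that act on these genes, 10 were higher, 6 lower and 5 did not pass, with a median log2-fold change of 0.12. The share called was close to the 77.8% of all genes tested. MYC, an activator of D-type cyclins and a repressor of CDKN1A and CDKN2B, fell by 2.88, from 7317 to 9315 counts under normoxia to 1048 to 1306 under hypoxia. MXI1, which opposes MYC, had the largest increase, at 3.96. ID1 and JUN rose by 1.96 and 1.90. FOXO3 and FOXO4, which activate CDKN1B, rose by 1.13 and 1.68, while FOXO1 did not pass. BMI1 and EZH2, Polycomb proteins that silence the CDKN2A locus, changed by -0.61 and -0.59, whereas CBX7, another Polycomb protein of that locus, rose by 1.68. HIF1A and EPAS1, which encode the oxygen-regulated subunits of HIF, changed in opposite directions, by -2.26 and 1.40 on the log2 scale.

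Neighbouring genes were followed at 3 loci, those of CDKN2A with CDKN2B, of CDKN1C and of CCND1, and their counts of calls stand beside 39.2% higher and 38.5% lower among all genes tested. Next to CDKN2A and CDKN2B, 3 of 4 tested genes were higher and 1 lower, or 2 higher and 1 lower with at least 10 counts in every library. The interferon gene IFNE rose by 2.69 from 7 to 13 counts under normoxia to 41 to 91 under hypoxia, and KLHL9 rose by 0.26. The antisense transcript CDKN2B-AS1 rose by 1.52 (SE 0.25, edgeR adjusted p = 2.65e-05), from 29 to 55 counts under normoxia to 88 to 146 under hypoxia. MTAP, often lost together with CDKN2A in tumors, was well counted in every library, with 1037 to 3014 counts, and changed by -1.21. Around CDKN1C, 4 of 9 tested genes were higher and 3 lower. The potassium channel gene KCNQ1 rose by 2.77, from 4 to 6 counts to 33 to 42, and TSSC4 changed by -1.39. IFNE and KCNQ1 passed the filter only through the hypoxia libraries. KCNQ1OT1, the noncoding RNA that controls imprinting there, rose by 1.37 and SLC22A18 by 1.73, whereas PHLDA2, another imprinted gene, changed by -1.01. H19 rose by 3.32 on the log2 scale, with 1024 counts in normoxia replicate 3 against 318 and 214 in normoxia replicates 1 and 2, and by 4.35 without normoxia replicate 3. Around CCND1, a region often amplified in squamous carcinoma, 7 of 9 tested genes were lower and 1 higher, with a median of -0.47. FADD changed by -1.29 and MYEOV by -1.63, and SHANK2 rose by 0.85.

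Because the sources used here do not say whether counting used the strand, reads from overlapping genes could be shared. In GENCODE v29, CCND1 shares 497 exonic bases with LTO1 on the opposite strand, which had 589 to 995 counts per library, and CDKN2A shares 341 bases with CDKN2B-AS1, which had 29 to 146. Both overlapping genes were below their neighbour in every library. CDKN1A shares 146 bases with DINOL and CCND2 shares 126 bases with CCND2-AS1, and these had at most 4 and 5 counts. CCND2 also shares 989 exonic bases on the same strand with AC008012.1, which was not analysed here, so that reads from both cannot be told apart. CDKN1B, CDKN1C, CDKN2B, CDKN2C, CDKN2D and CCND3 shared no exonic base with a gene of the count table.

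Normoxia replicate 3 stood at the edge of its group for most of the 10 genes, and so did normoxia replicate 2. In a group of 3 libraries this is common, so it does not by itself set a library apart. Normoxia replicate 3 had the highest CDKN1C, CDKN2B, CDKN2C and CDKN2D and the lowest CDKN1A, CDKN1B, CCND1, CCND2 and CCND3 of the normoxia libraries by CPM. The hypoxia-induced gene NDRG1 had 12097 counts there against 6078 and 4017 in normoxia replicates 1 and 2. EGLN3 was also highest there, with 317 counts against 218 and 107. ANGPTL4 was not, with 147 counts against 179 and 162, so the hypoxia response genes did not all follow NDRG1. The part of these differences in the results was not tested. Without this library the log2-fold changes were 0.47 for CDKN1A, 0.81 for CDKN1B, 3.84 for CDKN1C and -2.32 for CCND1, and the 8 genes called over all libraries were called without it.

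The genes most alike in pattern were sought among 9605 genes with a mean log2 CPM of at least 3, by Pearson's r of log2 CPM over the 6 libraries. CCND1 was closest to DDX21 (r = 0.99997), NOC2L and PALS2, of which DDX21 and NOC2L encode nucleolar proteins. CDKN1B was closest to DEGS1 (r = 0.99888), NAP1L1 and RPS2, and CDKN1A to KRBOX5 (r = 0.98174), NOMO1 and OSBPL1A. All these genes share the same 6 libraries, which fall into 2 conditions.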

How the data were processed

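RNA was measured in 6 SCC25 libraries, 3 per condition, grouped by the sample titles. The authors deposited whole-number counts for 21776 genes without normalization, and FPKM for the same genes. For 21775 genes, including the 10 described, the deposited FPKM followed from the counts, a gene length and the library total within 0.001%. The aligner, annotation, strand setting and counting tool are not given in the sources used here. The submitters' processing notes name GRCm38 and mm10, a mouse build, although the genes are human, so no coordinates were taken from the files. Totals of 29637189 to 37278703 counts set the counting error, which enters the standard errors. Replicate pairs differed by more than sampling noise (chi-square per gene 5.11 to 11.5).

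Differences between conditions were fitted to the counts in edgeR 4.0.16 under R 4.3.3 (glmQLFit and glmQLFTest, condition only, TMM, filterByExpr, Benjamini-Hochberg at 0.05). CPM are TMM-normalized, except the summed markers, which use the library total. The standard error is the log2-fold change divided by the square root of F. Log2 CPM used a prior count of 2. Alternatives were DESeq2 1.42.0 (size factors and Wald test), other filters, a replicate block, leaving out each library, and limma 3.58.1 on log2(FPKM + 1) or log2(FPKM + 0.1).

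All 10 genes, genes of lists of at most 13, and the 3 largest called changes in each direction of longer lists could be named. From the longer lists, CDT1, SKP2, CKS1B, MDM2, FOXO1, FOXO3, FOXO4, EZH2, CBX7 and EPAS1 were named outside this rule after their values were seen. The genes and lists were chosen with earlier results of these data known. Promoters came from RefSeq (GRCh38.p14) and exons from GENCODE v29.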

Additional observations from a re-analysis of the deposited data

How the results depend on the processing

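The 8 genes that passed the test kept their direction and an adjusted p-value under 0.05 in every alternative that gave a value, including limma on the FPKM, where a pseudocount of 1 shrank the log2-fold changes of the low genes CDKN1C and CDKN2B to 1.31 and 1.27. CDKN1C could not be fitted with at least 10 counts in every library. Adding a log2-fold change beyond 1 left 4338 of 11090 genes, 2840 higher and 1498 lower. CDKN2D, not called, had a log2-fold change of -0.034 without a filter on low counts, and with libraries left out it lay between -0.071 and 0.040, while CCND2, also not called, lay between -0.058 and 0.22. With the replicate number as a block, 10875 genes were called and no call among the 10 genes changed. Deviations of same-numbered libraries correlated at 0.0175, -0.069 and 0.00122, so no pairing by number was visible in these values. Such correlations cannot tell whether same-numbered libraries were handled together.

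By CPM without gene length, CDKN1A held 82.4% of its family under hypoxia and 85.9% under normoxia, CDKN2A 54.3% and 48.2%, and CCND1 71.6% and 82.7%. With the longest GENCODE v29 transcript as length, a choice made after the data had been seen, these were 84.2% and 87.7%, 69.1% and 61.7%, and 60.0% and 73.2%. Alternatives for the lists and other named genes were also added then. Without a filter, 2 neighbours of CCND1 and 3 endothelial markers were higher, against 1 and 1, and 0 endothelial markers with at least 10 counts in every library. With a library left out, 1 to 2 fibroblast and 0 to 1 endothelial markers were higher. The 93 other named genes with alternatives do not include CD14, CSF1R, CDH1, DSG3, SFN, ITGA6, EPCAM, EGLN3 and ANGPTL4. Of 1020 results for these 93 genes, 1000 kept their direction and call. A call was lost in 10, of KRT5 (2), CDH5 (4) and FAP (4), and gained in 6, of CDT1 (3), KRBOX5, NOMO1 and TP63. CDK8, not called, was at -0.032 without a filter and between -0.048 and 0.022 with a library left out. Genes with few counts, such as CDKN1C under normoxia, are limited by depth.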

Other observations

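Cyclins and CDKs outside the lists above were looked at after the values of the 10 genes had been seen, with membership set by gene symbol. Of 17 other cyclins tested, 5 were higher, 9 lower and 3 did not pass (edgeR's quasi-likelihood test, adjusted p under 0.05), beside 39.2% higher and 38.5% lower among all genes tested, with a median log2-fold change of -0.25. The largest increase was that of CCNG2, a cyclin of resting cells that does not drive the cycle, which rose from 21.5 ± 5.54 to 145 ± 5.91 CPM (SD, n = 3), a log2-fold change of 2.76. CCNY, a cyclin tethered to membranes, rose by 1.13. The largest decreases were those of CCNJ at -1.36 and CCNO at -1.20.

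Of 12 other CDKs tested, 5 were higher, 5 lower and 2 did not pass, with a median of 0.11, and these shares are close to those over all genes. CDK18 went from 8.14 to 81.4 CPM on average, a log2-fold change of 3.33, and CDK19, a kinase of the Mediator complex, rose by 1.82, whereas its close relative CDK8 did not pass, at 0.0089. CDK12, which phosphorylates RNA polymerase II, fell by 1.06 on the log2 scale.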
